A study of Mus musculus with 15 samples.

Results

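The 10 genes described here encode transcription factors of the early response, and they were chosen on their high levels in the muscles of untrained 9-month-old mice. They are Fos, Fosb, Fosl2, Jun, Junb, Jund, Atf3, Egr1, Klf4 and Myc, found by symbol among 20406 genes listed in the deposited table. All 10 passed the filter on low counts, which left 14919 genes in the 12 libraries without the LD group and 15181 genes in all 15 libraries. RNA was sequenced from the plantaris, a fast hindlimb muscle, of HSA-GFP mice, all adult males. The strain carries a reverse tetracycline transactivator under the human skeletal actin promoter and a tetracycline-driven histone 2B fused to green fluorescent protein, so the label marks nuclei of muscle fibres, and every group carries it. There were 5 groups of 3 libraries, and mice entered at 4 months of age. The 9M_PoW+DT group had 8 weeks of progressive weighted wheel running (PoWeR) and then 12 weeks of detraining, and was 9 months old. The 9M_UT group was untrained and 9 months old. The 6M_POW_LD group was titled as trained replicates 4 to 6 at 6 months and carried LD identifiers, whose meaning the labels do not explain. The 6M_PoW group was trained for 8 weeks and was 6 months old. The 6M_UT group was untrained and 6 months old.

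The titles and the treatment field disagreed in 9 libraries. The field called the 9M_PoW+DT libraries sedentary, the 9M_UT libraries detrained and the 6M_POW_LD libraries sedentary. Groups follow the titles here, except that the LD libraries, titled as trained, were kept apart by their identifiers. The direction of every comparison with a 9-month or LD group therefore rests on the titles. Under the other reading of the 9-month libraries, the high levels described below would belong to the detrained mice. The library identifiers also form separate series for the 6-month, the 9-month and the LD libraries. Neither age nor the LD group can therefore be told apart from library series. Since no label says that replicates are separate mice, each p-value reflects only the spread among libraries, which may be technical.

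AP-1 is a dimer of basic leucine zipper proteins. Jun, Junb and Jund can pair with each other or with a Fos protein (Fos, Fosb, Fosl2), and Atf3 can pair with Jun proteins. Many of these genes are immediate early genes: signals such as growth factors, calcium, contraction or stress switch on their transcription within minutes through factors that are already present, mainly Srf with its partners and Creb, and their mRNAs are short-lived. Egr1 and Klf4 are zinc finger factors and Myc is a basic helix-loop-helix factor, all with early induction in many cell types. In skeletal muscle these mRNAs are known to rise after a bout of contraction and after injury, in fibres and in the cells between them.

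Sequence before the transcription start is shown for the members in which letters of known early-response motifs lay close to the start. RefSeq promoters on build GRCm38.p6 were found for 8 of the 10 members, all except Egr1 and Myc. The 250 bases before each start were searched on both strands for TGACGTCA, the Creb and Atf site, and for its first part, written TGACG. The AP-1 site was searched as TGANTCA, the Srf site as the CArG box, and the core promoter box as TATAAA. The windows follow the RefSeq starts, which can differ from the deposited gene spans. The Fosl2 window ends 671 bases inside the deposited gene and lies wholly within an annotated exon, the Atf3 window ends 34706 bases inside the gene, and the Jund window ends 1210 bases before it; the other 5 end within 30 bases of the deposited start. None of the 8 windows held TGACGTCA, TGANTCA or a CArG box, which stood in 1.55%, 6.75% and 1.47% of 32851 promoters. Bases further upstream were not searched, so a motif absent from a window may still lie elsewhere near the gene. TATAAA stood in 1 member window, that of Fos, and in 12.4% of all promoters. TGACG stood in 5 of the 8, those of Fos, Fosb, Junb, Atf3 and Klf4, and in 17.8% of all promoters; TGACGTCA contains it. A match is a run of letters and not a shown binding site. The 150 bases next to the start follow for the 4 members with TGACG inside them, and capitals mark TGACG on either strand and TATAAA.
Fos: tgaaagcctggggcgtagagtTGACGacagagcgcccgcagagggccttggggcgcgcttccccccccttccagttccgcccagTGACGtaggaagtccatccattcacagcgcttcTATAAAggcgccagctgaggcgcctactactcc
Fosb: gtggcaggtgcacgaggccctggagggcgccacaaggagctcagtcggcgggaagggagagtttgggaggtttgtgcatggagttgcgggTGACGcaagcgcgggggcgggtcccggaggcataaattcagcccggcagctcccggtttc
Junb: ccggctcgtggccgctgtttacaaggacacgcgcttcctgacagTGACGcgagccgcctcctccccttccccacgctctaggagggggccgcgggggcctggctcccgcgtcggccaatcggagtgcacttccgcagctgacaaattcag
Atf3: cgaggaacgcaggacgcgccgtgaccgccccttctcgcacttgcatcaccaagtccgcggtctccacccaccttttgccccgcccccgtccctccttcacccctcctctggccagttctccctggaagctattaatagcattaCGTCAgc
These stretches lie at chr12:85473740-85473889 on the plus strand for Fos, chr7:19310046-19310195 on the minus strand for Fosb, chr8:84978749-84978898 on the minus strand for Junb and chr1:191183334-191183483 on the minus strand for Atf3. Fos held TGACG at bases -129 to -125 and at bases -66 to -62 from the start, and TATAAA at bases -33 to -28. Atf3 held it at bases -7 to -3, read on the other strand. The last 6 bases shown for Fosb and 7 bases for Atf3 overlap an annotated exon.

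Each library held between 18865000 and 27688800 counts, with 17962 to 18817 genes detected. Both lowest values were those of 9M_UT replicate 2. The 9M_UT libraries held 18865000 to 21693900 counts and 17962 to 18607 genes, against 20614700 to 22451400 counts and 18331 to 18488 genes in 9M_PoW+DT. The 10 most abundant genes took 25.7% to 27.9% of counts in 9M_UT and 24.9% to 27.9% over all 15 libraries. The part of these differences in the levels below was not tested. Levels are given in CPM, counts per 1000000 of the scaled library total, in 1 scale over the 15 libraries. Summed CPM of 8 myofibre markers (Acta1, Ckm, Ttn, Tnnt3 and 4 myosin genes) lay between 104204 and 138495 in all groups. In such bulk samples, fewer cells of a type and less RNA per cell cannot be told apart. Counting on annotated strands is not stated, and reads of overlapping or antisense genes may be shared.

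Jun and Jund were the most abundant members per exon length in every group, and Fosb was the scarcest. Group means of Jun, a single-exon gene on chromosome 4 (95049034 to 95052222, mm10, minus strand), lay between 33.0 and 51.6 CPM per kb of exon. Those of Jund, on chromosome 8 (70698949 to 70700616, plus strand), lay between 31.8 and 44.4 CPM per kb. Klf4 on chromosome 4 (55527143 to 55532466, minus strand) followed with 6.11 to 15.8 CPM per kb. Atf3 on chromosome 1 (191170296 to 191218039, minus strand), Fos on chromosome 12 (85473890 to 85477273, plus strand) and Junb on chromosome 8 (84976910 to 84978718, minus strand) overlapped in level: group means were 2.64 to 11.4, 3.63 to 9.73 and 3.29 to 7.03 CPM per kb. For Junb the annotated exon length of 2.30 kb is 1.27 times the deposited span of 1809 bases, so over that span its values per kb would be higher by this factor. Fosl2 on chromosome 5 (32135801 to 32157842, plus strand) lay at 1.28 to 3.37 CPM per kb. Egr1 on chromosome 18 (34859823 to 34864984, plus strand) and Myc on chromosome 15 (61985391 to 61990374, plus strand) lay close together at 0.969 to 1.84 and 0.894 to 1.55 CPM per kb. Fosb on chromosome 7 (19302696 to 19310051, minus strand) had 0.0665 to 0.228 CPM per kb, from 7 to 59 counts a library. All 10 are annotated as protein-coding genes.

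**Figure D1:**
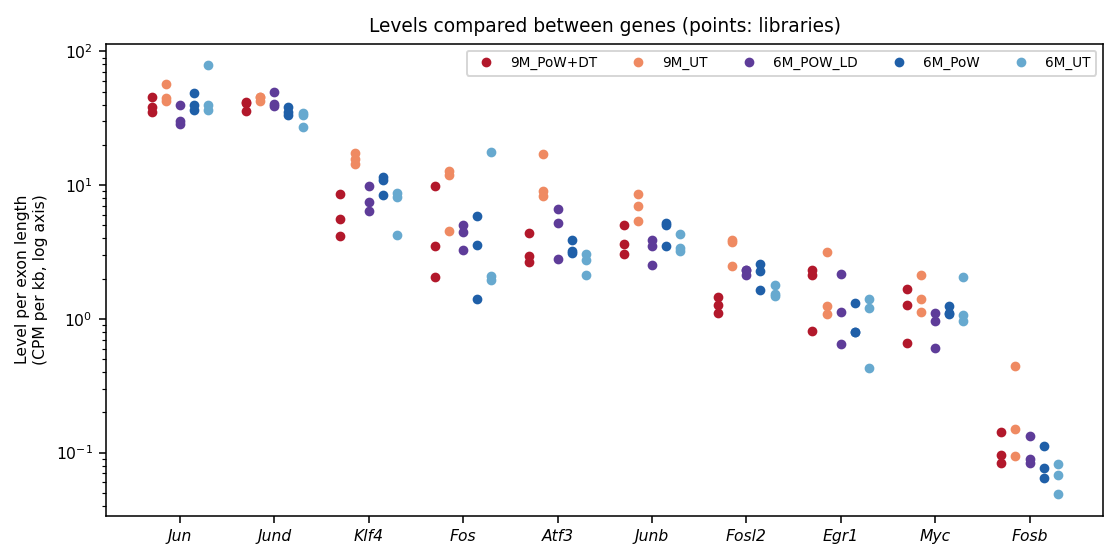
Level of each member per kb of annotated exon (CPM per kb, log axis) in every library, with groups coloured and genes ordered by mean level. Jun and Jund lay above the other 8 members, and the group means of Fosb lay below those of every other member.

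The make-up of the AP-1 pool per length followed from these levels. Jun and Jund together made up 80.6% to 88.5% of the summed CPM per kb of Fos, Fosb, Fosl2, Jun, Junb, Jund and Atf3 in 9M_PoW+DT libraries and 69.5% to 78.6% in 9M_UT libraries. They made up 81.2% to 86.3% in 6M_POW_LD, 83.3% to 86.6% in 6M_PoW and 80.9% to 88.6% in 6M_UT libraries. The Jun and Jund share was thus lower in all 3 9M_UT libraries than in the other 12, which follows in part from the choice of genes by their 9M_UT levels. The share of Atf3 was 2.67% to 4.42% in 9M_PoW+DT and 6.10% to 13.9% in 9M_UT libraries, against 3.49% to 6.24% in 6M_POW_LD, 3.71% to 3.76% in 6M_PoW and 2.16% to 3.61% in 6M_UT libraries. The highest 6M_POW_LD library overlapped the lowest 9M_UT library in this share.

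High levels in the 9M_UT libraries were shared by only some of the chosen members. In 3 of the 10, Atf3, Klf4 and Junb, each of the 3 9M_UT libraries was above all 12 other libraries. The 9M_UT mean was the highest of the 5 groups in 9 of the 10, all but Jun. The single highest library was a 9M_UT library in 7 of the 10, and it was 6M_UT replicate 1 for Fos and Jun and 6M_POW_LD replicate 6 for Jund. These orders are what the genes were chosen on, so they are given as a description with no test. The share of all genes with such orders was not counted, and nothing is read from these counts.

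**Figure D2:**
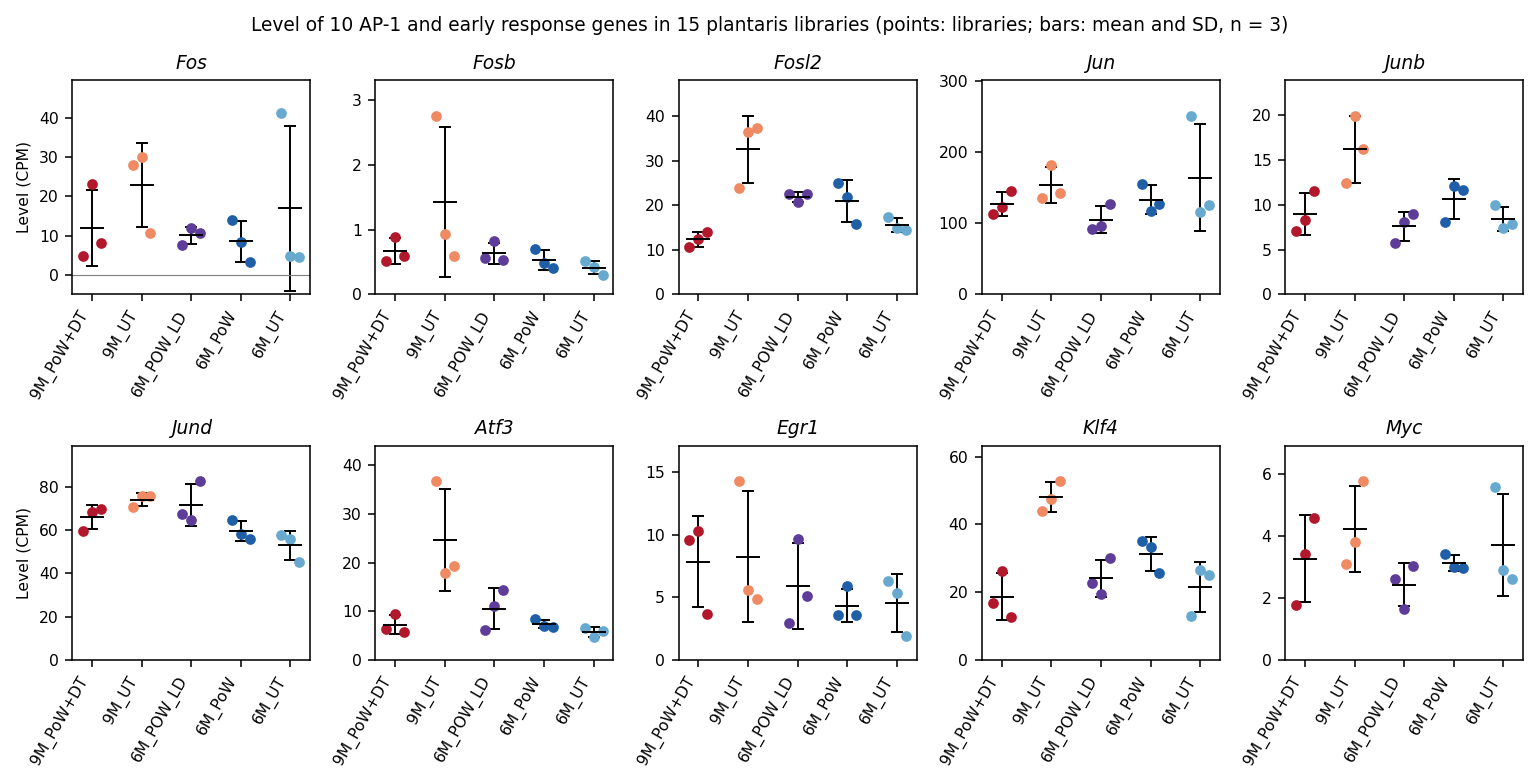
Level (CPM) of each member in the 15 libraries by group, with points for libraries and bars for the mean and SD of 3 libraries. Atf3, Klf4 and Junb stood apart in 9M_UT. The 9M_UT range overlapped all 4 other groups in Fos and Egr1, and 3 of the 4 in Fosb, Jun and Myc (for Fos in 6M_UT the SD bar passes below 0).

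Atf3, a stress-induced factor that represses or activates with its partner, showed the largest excess in untrained 9-month muscle. It had 6.38, 9.43 and 5.78 CPM in the 9M_PoW+DT libraries and 36.7, 17.9 and 19.3 CPM in the 9M_UT libraries. It had 6.04, 11.2 and 14.4 CPM in 6M_POW_LD, 8.38, 6.91 and 6.74 CPM in 6M_PoW, and 6.53, 4.60 and 5.94 CPM in 6M_UT libraries. The 9M_UT libraries lay above all others, and replicate 1 was the highest of them. The order of group means was 9M_UT, 6M_POW_LD, 6M_PoW, 9M_PoW+DT and 6M_UT, and only the step from 9M_UT to 6M_POW_LD was free of overlap.

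Klf4, a zinc finger factor of endothelial, smooth muscle and myeloid cells that is also a pluripotency factor, had 16.9, 26.3 and 12.7 CPM in 9M_PoW+DT and 43.9, 47.4 and 52.7 CPM in 9M_UT libraries. It had 22.7, 19.5 and 30.1 CPM in 6M_POW_LD, 35.0, 33.3 and 25.5 CPM in 6M_PoW, and 13.0, 26.7 and 25.0 CPM in 6M_UT libraries. The 9M_UT values were close to each other and above the rest, and the lowest value of the other groups was in 9M_PoW+DT. Junb, a Jun protein that often restrains Jun-driven transcription and that supports muscle mass in mice, had 7.04, 8.31 and 11.6 CPM in 9M_PoW+DT and 12.5, 19.9 and 16.2 CPM in 9M_UT libraries. It had 5.78, 8.02 and 8.91 CPM in 6M_POW_LD, 8.06, 12.1 and 11.6 CPM in 6M_PoW, and 9.93, 7.36 and 7.86 CPM in 6M_UT libraries. For Junb the lowest 9M_UT library was only just above the highest 6M_PoW library.

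Fosl2, a Fos protein that lacks the strong activation domain of Fos, had 10.7, 12.4 and 14.0 CPM in 9M_PoW+DT and 24.0, 36.4 and 37.4 CPM in 9M_UT libraries. It had 22.6, 20.7 and 22.5 CPM in 6M_POW_LD, 25.0, 21.9 and 15.8 CPM in 6M_PoW, and 17.4, 14.9 and 14.4 CPM in 6M_UT libraries. Of the 9M_UT libraries, 2 lay above all others, and the third fell just under 6M_PoW replicate 1; the 9M_PoW+DT libraries were the 3 lowest of all 15. Jund, the Jun protein with the steadiest expression in most cells, had 59.8, 68.6 and 69.99 CPM in 9M_PoW+DT and 70.7, 75.7 and 75.7 CPM in 9M_UT libraries. It had 67.6, 64.8 and 82.5 CPM in 6M_POW_LD, 64.6, 58.3 and 55.8 CPM in 6M_PoW, and 57.9, 55.7 and 45.4 CPM in 6M_UT libraries. The groups of Jund formed a graded order in which each overlapped its neighbour. Fosb, the Fos protein whose short form is known for persistence in brain, had 0.521, 0.892 and 0.601 CPM in 9M_PoW+DT and 2.75, 0.936 and 0.591 CPM in 9M_UT libraries. The other 3 groups lay between 0.306 and 0.824 CPM, so the high Fosb mean of 9M_UT rested on replicate 1.

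Fos and Egr1 separated no pair of the 5 groups, and Jun and Myc separated 1 of 10 pairs each, with 9M_UT above 6M_POW_LD. How many of the 10 pairs other genes separated was not counted. Fos, the classical partner of Jun, had 4.82, 23.0 and 8.23 CPM in 9M_PoW+DT and 28.0, 30.0 and 10.7 CPM in 9M_UT libraries. It had 7.71, 11.9 and 10.6 CPM in 6M_POW_LD, 13.9, 8.39 and 3.33 CPM in 6M_PoW, and 41.3, 4.88 and 4.63 CPM in 6M_UT libraries. The highest and some of the lowest Fos values of the series stood in 1 group, 6M_UT. Jun, the founding AP-1 subunit, had 113, 123 and 146 CPM in 9M_PoW+DT and 135, 182 and 143 CPM in 9M_UT libraries. It had 92.1, 96.7 and 127 CPM in 6M_POW_LD, 156, 117 and 127 CPM in 6M_PoW, and 251, 117 and 126 CPM in 6M_UT libraries. The 9M_UT range of Jun lay above that of 6M_POW_LD and overlapped the other 3. Egr1, a growth-signal factor, had 9.60, 10.3 and 3.65 CPM in 9M_PoW+DT and 14.3, 5.61 and 4.87 CPM in 9M_UT libraries, with 2.91 to 9.70 CPM in 6M_POW_LD, 3.56 to 5.88 CPM in 6M_PoW and 1.92 to 6.32 CPM in 6M_UT libraries. Myc, a driver of ribosome production and growth, had 1.78, 3.43 and 4.58 CPM in 9M_PoW+DT and 3.08, 3.80 and 5.76 CPM in 9M_UT libraries, with 1.65 to 3.02 CPM in 6M_POW_LD, 2.97 to 3.42 CPM in 6M_PoW and 2.62 to 5.59 CPM in 6M_UT libraries. The lowest 9M_UT library of Myc lay only just above the highest 6M_POW_LD library.

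How far a single library led differed between groups. In 6M_UT, replicate 1 had the highest level in 9 of the 10 members, with 8.69 times the mean of the other 2 libraries for Fos, 2.07 times for Jun and 2.02 times for Myc, but 0.502 times for Klf4. In 6M_PoW, replicate 1 was the highest in 8 of the 10. In 9M_UT, replicates 1, 2 and 3 led in 3, 3 and 4 members, so no single 9M_UT library carried the high levels of all genes. Averaged over the 10 members, log2 CPM relative to each gene's mean was -0.42, 0.17 and -0.22 in 9M_PoW+DT and 0.82, 0.67 and 0.47 in 9M_UT libraries. The averages were -0.36, -0.04 and 0.08 in 6M_POW_LD, 0.06, -0.06 and -0.37 in 6M_PoW, and 0.18, -0.39 and -0.58 in 6M_UT libraries.

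**Figure D3:**
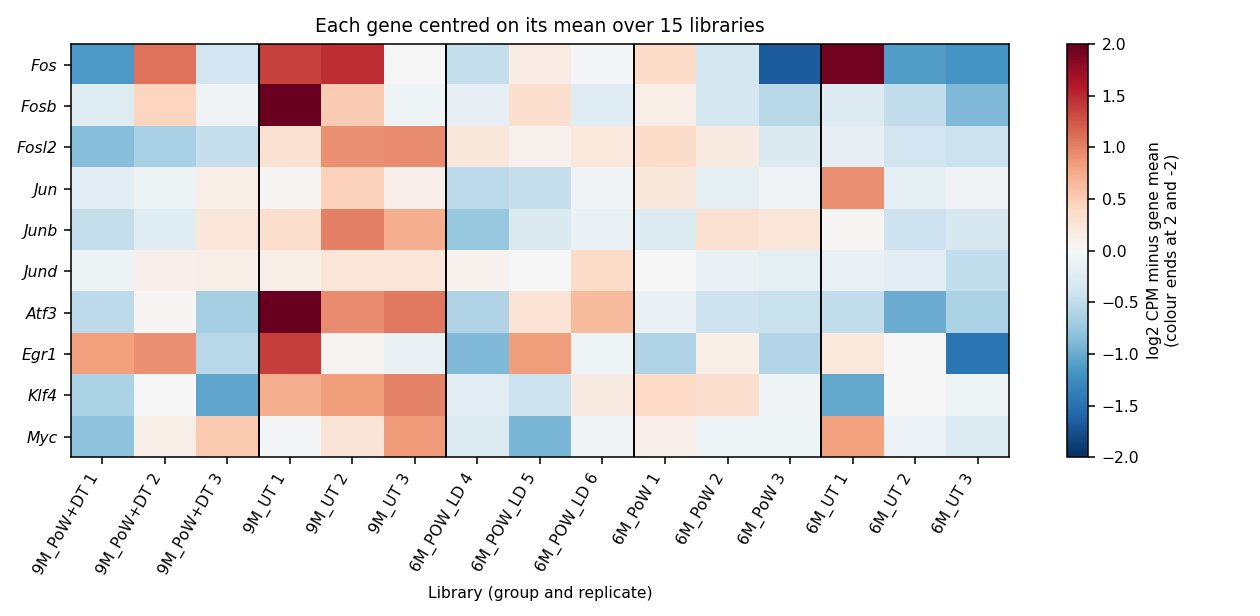
log2 CPM of each member minus its mean over 15 libraries, by library, in colours that end at 2 and -2. Within 9M_UT, replicate 1 was the highest in Fosb, Atf3 and Egr1, replicate 2 in Fos, Jun and Junb, and replicate 3 in Fosl2, Jund, Klf4 and Myc, while 6M_UT replicate 1 was high in Fos, Jun and Myc and low in Klf4.

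Detrained muscle was compared with untrained muscle of the same age. All 10 members had a negative fitted log2 fold change in 9M_PoW+DT relative to 9M_UT, with a median of -0.89 beside 0.00 over all genes, and this direction follows from choosing genes that were high in 9M_UT. The fitted log2 fold change was -1.78 ± 0.27 (SE, n = 3 per group) for Atf3, -1.40 ± 0.19 for Fosl2, -1.36 ± 0.31 for Klf4 and -0.85 ± 0.22 for Junb. It was -0.16 ± 0.10 for Jund, -1.09 ± 0.56 for Fosb and -0.93 ± 1.01 for Fos. It was -0.37 ± 0.36 for Myc, -0.27 ± 0.28 for Jun and -0.07 ± 0.56 for Egr1. The groups did not overlap in 5 members, Atf3, Fosl2, Klf4, Junb and Jund, and they overlapped in the other 5; of all 14919 genes, 11.9% did not overlap. Nothing is read from that count, since the genes were chosen on these libraries. Of all 14919 genes, 3 were called (0.0201%), all lower in 9M_PoW+DT, at an adjusted p under 0.05 by edgeR's quasi-likelihood test with Benjamini-Hochberg adjustment; members are given no call here. Without 9M_UT replicate 1 the log2 fold change was -1.37 for Atf3, -0.18 for Fosb and 0.59 for Egr1.

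Markers of other cells moved with this comparison. Summed CPM of 8 endothelial markers was 228 to 282 in 9M_PoW+DT and 283 to 308 in 9M_UT libraries, with 8 of 8 markers below 0 in log2 fold change and 0 of 8 called, all of them detected. Summed CPM of 6 fibro-adipogenic markers was 295 to 341 in 9M_PoW+DT and 360 to 384 in 9M_UT libraries, with 5 of 6 below 0 and 0 called. Neutrophil markers summed to 0.130 to 0.508 CPM in 9M_PoW+DT and 0.886 to 1.10 CPM in 9M_UT libraries, where S100a8 and Retnlg averaged under 0.1 CPM over the 15 libraries. Macrophage markers summed to 61.5 to 73.3 CPM in 9M_PoW+DT and 61.3 to 70.6 CPM in 9M_UT libraries and so overlapped. Adipocyte markers went the other way, with 15.4 to 61.6 CPM in 9M_PoW+DT and 7.43 to 14.0 CPM in 9M_UT libraries. Mitochondrial transcripts took 16.0% to 18.9% of counts in 9M_PoW+DT and 19.5% to 21.7% in 9M_UT libraries. Satellite cell markers overlapped, with 25.4 to 28.9 CPM in 9M_PoW+DT and 25.6 to 28.7 CPM in 9M_UT libraries. The part of these differences in the levels of the early response genes was not tested.

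Untrained mice of 9 months were compared with untrained mice of 6 months, a contrast that shares the 9M_UT libraries with the previous one. The fitted log2 fold change of 9M_UT relative to 6M_UT was above 0 in 9 of the 10 members, with a median of 0.90 beside -0.01 over all genes, as the choice of genes favours. It was 2.12 ± 0.28 for Atf3, 1.77 ± 0.57 for Fosb, 1.15 ± 0.31 for Klf4, 1.07 ± 0.19 for Fosl2 and 0.95 ± 0.22 for Junb (SE, n = 3 per group). It was 0.48 ± 0.10 for Jund, 0.86 ± 0.57 for Egr1, 0.44 ± 0.99 for Fos, 0.19 ± 0.35 for Myc and -0.10 ± 0.28 for Jun. In 6 members, Atf3, Fosb, Klf4, Fosl2, Junb and Jund, the 2 groups did not overlap, beside 11.8% of all genes, and again the choice of genes favours this. Of all 14919 genes, 2 were called (0.0134%), both higher in 9M_UT, and members are again given no call. Without 6M_UT replicate 1 the log2 fold change was 2.26 for Fos, 0.34 for Jun and 0.61 for Myc. Without 9M_UT replicate 1 it was 0.86 for Fosb and 0.20 for Egr1. Macrophage markers summed to 61.3 to 70.6 CPM in 9M_UT and 46.6 to 54.2 CPM in 6M_UT libraries, with 9 of 9 above 0 and 0 called. Fibro-adipogenic markers summed to 360 to 384 CPM in 9M_UT and 307 to 318 CPM in 6M_UT libraries, with 5 of 6 above 0 and 0 called. Neutrophil markers summed to 0.886 to 1.10 CPM in 9M_UT and 0.0860 to 0.566 CPM in 6M_UT libraries, with 1 of the 5 listed tested, Csf3r, at a log2 fold change of 2.40 and not called. Mitochondrial transcripts took 19.5% to 21.7% of counts in 9M_UT and 18.6% to 19.1% in 6M_UT libraries. Their part in the result was not tested.

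**Figure D4:**
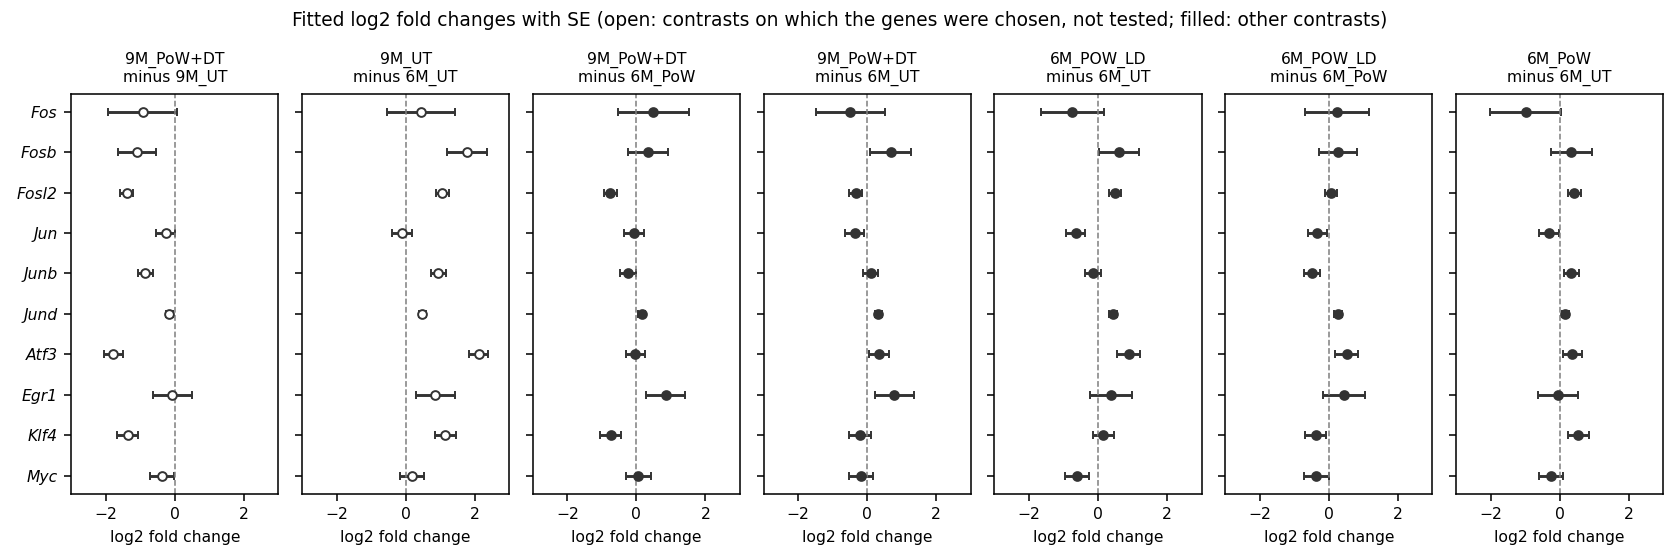
Fitted log2 fold change of each member with its SE in the 7 comparisons, with open points for the 2 contrasts on which the genes were chosen. In both, Atf3, Fosl2, Klf4 and Fosb lay more than 1 from 0, and in the other 5 contrasts all members lay within 1 of 0.

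The remaining 5 comparisons do not set a group against 9M_UT, but the 9M_UT libraries still enter the filter, the scaling and the estimate of spread, and p-values were adjusted over all genes. In fits of the 2 groups alone, which leave those libraries out, 0 of the 10 members were called in each of the 5. These 5 comparisons share libraries with each other. No member passed the test after training. After 8 weeks of PoWeR, 6M_PoW relative to 6M_UT had 0 of the 10 members and 0 of 14919 genes (0%) called by edgeR, with 1 member and 1455 genes at an unadjusted p under 0.05, while DESeq2 called 112 genes and limma-voom 2, none of them members. Fosl2 had the smallest p, with a log2 fold change of 0.43 ± 0.19 (edgeR adjusted p = 0.479) and 2 of the 3 6M_PoW libraries above all 6M_UT libraries. Klf4 had 0.54 ± 0.31 (adjusted p = 0.619) and Junb 0.34 ± 0.22 (adjusted p = 0.653). Atf3 was the only member without overlap, beside 16.2% of all genes, with 6.74 to 8.38 CPM in 6M_PoW and 4.60 to 6.53 CPM in 6M_UT libraries, and a log2 fold change of 0.37 ± 0.28 (adjusted p = 0.709). Fos had -0.98 ± 1.02 (adjusted p = 0.802), and 0.84 without 6M_UT replicate 1. Jun had -0.30 ± 0.28 (adjusted p = 0.772), and 0.14 without that library. The other 4 members, Fosb, Jund, Egr1 and Myc, lay between -0.24 and 0.34. Fibro-adipogenic markers summed to 367 to 441 CPM in 6M_PoW and 307 to 318 CPM in 6M_UT libraries (6 of 6 above 0, 0 called). Macrophage markers summed to 67.3 to 85.4 CPM in 6M_PoW and 46.6 to 54.2 CPM in 6M_UT libraries (9 of 9 above 0, 0 called). Endothelial markers summed to 321 to 358 CPM in 6M_PoW and 249 to 301 CPM in 6M_UT libraries (7 of 8 above 0, 0 called), and mural markers to 382 to 419 CPM in 6M_PoW and 330 to 336 CPM in 6M_UT libraries (5 of 6 above 0, 0 called). Adipocyte markers summed to 5.49 to 9.09 CPM in 6M_PoW and 9.25 to 11.2 CPM in 6M_UT libraries (0 of 4 above 0, 0 called). Mitochondrial transcripts took 19.8% to 21.1% of counts in 6M_PoW and 18.6% to 19.1% in 6M_UT libraries. Their part in these values was not tested.

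Fosl2 and Klf4 had lower fitted levels after detraining than in trained muscle. By edgeR, with the LD libraries kept apart, neither passed the test over all genes. In 9M_PoW+DT relative to 6M_PoW, 0 of the 10 members and 44 of 14919 genes (0.295%) were called by edgeR, 22 higher and 22 lower. At an unadjusted p under 0.05 there were 2 members and 1897 genes. Fosl2 had 10.7 to 14.0 CPM in 9M_PoW+DT and 15.8 to 25.0 CPM in 6M_PoW libraries, the only member without overlap, beside 19.2% of all genes, and a log2 fold change of -0.76 ± 0.19 (edgeR adjusted p = 0.104). DESeq2, with 348 genes called, called Fosl2 as its only member (adjusted p = 0.0150), and limma-voom, with 48 genes, called none. With the LD libraries counted as trained, edgeR called Fosl2 at a log2 fold change of -0.79 (adjusted p = 0.0296). Klf4 had 12.7 to 26.3 CPM in 9M_PoW+DT and 25.5 to 35.0 CPM in 6M_PoW libraries, which overlapped by 1 library, and a log2 fold change of -0.75 ± 0.31 (edgeR adjusted p = 0.355). Egr1 had 0.85 ± 0.57 (adjusted p = 0.610) and Fos 0.49 ± 1.03 (adjusted p = 0.900). Atf3 had -0.03 ± 0.28 (adjusted p = 0.983). The other 5 lay between -0.24 and 0.34, with adjusted p from 0.577 to 0.973. Endothelial markers summed to 228 to 282 CPM in 9M_PoW+DT and 321 to 358 CPM in 6M_PoW libraries (8 of 8 below 0, 0 called), and fibro-adipogenic markers to 295 to 341 CPM in 9M_PoW+DT and 367 to 441 CPM in 6M_PoW libraries (6 of 6 below 0, 0 called). Mural markers summed to 296 to 326 CPM in 9M_PoW+DT and 382 to 419 CPM in 6M_PoW libraries (5 of 6 below 0, 1 called lower), and adipocyte markers to 15.4 to 61.6 CPM in 9M_PoW+DT and 5.49 to 9.09 CPM in 6M_PoW libraries (4 of 4 above 0, 1 called higher). Mitochondrial transcripts took 16.0% to 18.9% of counts in 9M_PoW+DT and 19.8% to 21.1% in 6M_PoW libraries. Their part in the Fosl2 and Klf4 values was not tested. Age and the library series differ between these groups too and cannot be told apart from detraining.

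Detrained 9-month muscle was also set beside untrained 6-month muscle, a comparison in which age and past training differ together. In 9M_PoW+DT relative to 6M_UT, 0 of the 10 members and 0 of 14919 genes (0%) were called by edgeR, with 1 member and 773 genes at an unadjusted p under 0.05. DESeq2 called 12 genes and limma-voom 0, none of them members. Jund had 59.8 to 69.99 CPM in 9M_PoW+DT and 45.4 to 57.9 CPM in 6M_UT libraries without overlap, and a log2 fold change of 0.32 ± 0.10 (edgeR adjusted p = 0.829). Fosl2 lay lower without overlap at -0.33 ± 0.19 (adjusted p = 0.944), and Fosb lay higher without overlap at 0.68 ± 0.59; these 3 of the 10 members did not overlap, beside 9.85% of all genes. Atf3 had 0.34 ± 0.28 (adjusted p = 0.967) and Klf4 -0.21 ± 0.31 (adjusted p = 0.986). Fos had -0.49 ± 1.004, and 1.33 without 6M_UT replicate 1. Over the 10 members the median was -0.04, with 5 above and 5 below 0. Macrophage markers summed to 61.5 to 73.3 CPM in 9M_PoW+DT and 46.6 to 54.2 CPM in 6M_UT libraries (9 of 9 above 0, 0 called), and adipocyte markers to 15.4 to 61.6 CPM in 9M_PoW+DT and 9.25 to 11.2 CPM in 6M_UT libraries (4 of 4 above 0, 0 called). Mural markers summed to 296 to 326 CPM in 9M_PoW+DT and 330 to 336 CPM in 6M_UT libraries (4 of 6 above 0, 0 called). Their part in these values was not tested.

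With the LD libraries kept apart, edgeR called only Jund among the members in the 5 contrasts not made against 9M_UT. With the LD libraries counted as trained, as they are titled, edgeR called Fosl2 in the detrained against trained contrast (adjusted p = 0.0296). DESeq2, with the LD libraries kept apart, called Fosl2 in that contrast and Atf3 in the one that follows. In 6M_POW_LD relative to 6M_UT, 1 of the 10 members was called, against 757 of 15181 genes (4.99%), of which 327 were higher and 430 lower. With 10 members, 1 call is close to the share over all genes. Jund had 67.6, 64.8 and 82.5 CPM in 6M_POW_LD and 57.9, 55.7 and 45.4 CPM in 6M_UT libraries, which did not overlap. Its log2 fold change was 0.43 ± 0.11 (edgeR adjusted p = 0.0238). The call was lost without 6M_UT replicate 3 (0.33, adjusted p = 0.0976), without 6M_POW_LD replicate 6 (0.32, adjusted p = 0.121) and in a fit of the 2 groups alone (0.43, adjusted p = 0.0904). In 6M_POW_LD replicate 6, erythroid markers summed to 3080 CPM, against 1028 CPM or less in the other 14 libraries, and macrophage markers summed to 71.7 to 84.4 CPM in the 6M_POW_LD and 46.6 to 54.2 CPM in the 6M_UT libraries (9 of 9 above 0, 1 called). Fibro-adipogenic markers summed to 386 to 475 CPM in 6M_POW_LD and 307 to 318 CPM in 6M_UT libraries (6 of 6 above 0, 4 called). Mural markers summed to 386 to 406 CPM in 6M_POW_LD and 330 to 336 CPM in 6M_UT libraries (5 of 6 above 0, 0 called), and Schwann cell markers to 39.4 to 107 CPM in 6M_POW_LD and 28.7 to 33.7 CPM in 6M_UT libraries (4 of 4 above 0, 0 called). Lymphocyte markers summed to 0.824 to 1.37 CPM in 6M_POW_LD and 0.301 to 0.698 CPM in 6M_UT libraries, and adipocyte markers to 1.84 to 9.07 CPM in 6M_POW_LD and 9.25 to 11.2 CPM in 6M_UT libraries. Mitochondrial transcripts took 19.2% to 22.5% of counts in 6M_POW_LD and 18.6% to 19.1% in 6M_UT libraries. The part of these in the Jund value was not tested. The LD libraries form their own identifier series, which cannot be told apart from the group in any LD comparison. Fosl2 had 0.50 ± 0.17 (adjusted p = 0.112) without overlap; in all, 3 of the 10 members did not overlap, Fosb, Fosl2 and Jund, beside 25.2% of all genes. Atf3 had 0.89 ± 0.33 (adjusted p = 0.155), and DESeq2 called it (adjusted p = 0.0391). Jun had -0.64 ± 0.27 (adjusted p = 0.221), and -0.20 without 6M_UT replicate 1. Fos had -0.74 ± 0.91, and 1.08 without that library.

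Against the 6M_PoW libraries, which bear the same kind of title, 6M_POW_LD had 0 of the 10 members called by edgeR, beside 365 of 15181 genes (2.4%), 195 higher and 170 lower. At an unadjusted p under 0.05 there were 2 members and 2166 genes, while DESeq2 called 675 genes and limma-voom 363, none of them members. Jund alone of the members lay higher in 6M_POW_LD without overlap, beside 21.4% of all genes that did not overlap in either direction, at 0.27 ± 0.11 (edgeR adjusted p = 0.229). Junb lay lower at -0.49 ± 0.22 (adjusted p = 0.331), with 5.78 to 8.91 CPM in 6M_POW_LD and 8.06 to 12.1 CPM in 6M_PoW libraries, which overlapped. Atf3 had 0.52 ± 0.33 (adjusted p = 0.550), and Fosl2 0.07 ± 0.17 (adjusted p = 0.923). Schwann cell markers summed to 39.4 to 107 CPM in 6M_POW_LD and 23.4 to 38.2 CPM in 6M_PoW libraries (4 of 4 above 0, 0 called), and myofibre markers to 116099 to 127954 CPM in 6M_POW_LD and 104204 to 112514 CPM in 6M_PoW libraries (8 of 8 above 0, 0 called). Their part in these values was not tested.

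Most other immediate early genes lay lower in 9M_PoW+DT than in 9M_UT and higher in 9M_UT than in 6M_UT, but 1 passed the test, in the detraining contrast. The contrasts share the 9M_UT libraries. Of 29 tested, 25 lay below 0 and 4 above in 9M_PoW+DT relative to 9M_UT, with a median log2 fold change of -0.46, and 25 lay above 0 and 4 below in 9M_UT relative to 6M_UT, with a median of 0.51. The medians of all genes were 0.00 and -0.01. Nr4a2, an orphan nuclear receptor induced by calcium and cyclic AMP, was the 1 called gene. It had 1.56, 0.563 and 0.693 CPM in 9M_PoW+DT and 6.11, 5.45 and 6.99 CPM in 9M_UT libraries, which did not overlap, with a log2 fold change of -2.70 ± 0.39 (edgeR adjusted p = 0.0209). In 9M_UT relative to 6M_UT it had 2.34 ± 0.38 (adjusted p = 0.0554), with 1.06 to 1.33 CPM in 6M_UT libraries. Klf2, a flow-induced endothelial factor, had 10.3, 26.7 and 10.7 CPM in 9M_PoW+DT and 44.3, 48.5 and 31.9 CPM in 9M_UT libraries without overlap, at -1.39 ± 0.37 (adjusted p = 0.601). Klf6 had -1.05 ± 0.26 (adjusted p = 0.576), and the kinase gene Pim1 -1.46 ± 0.38 (adjusted p = 0.576). The list was drawn up with earlier results of these data known.

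**Figure D5:**
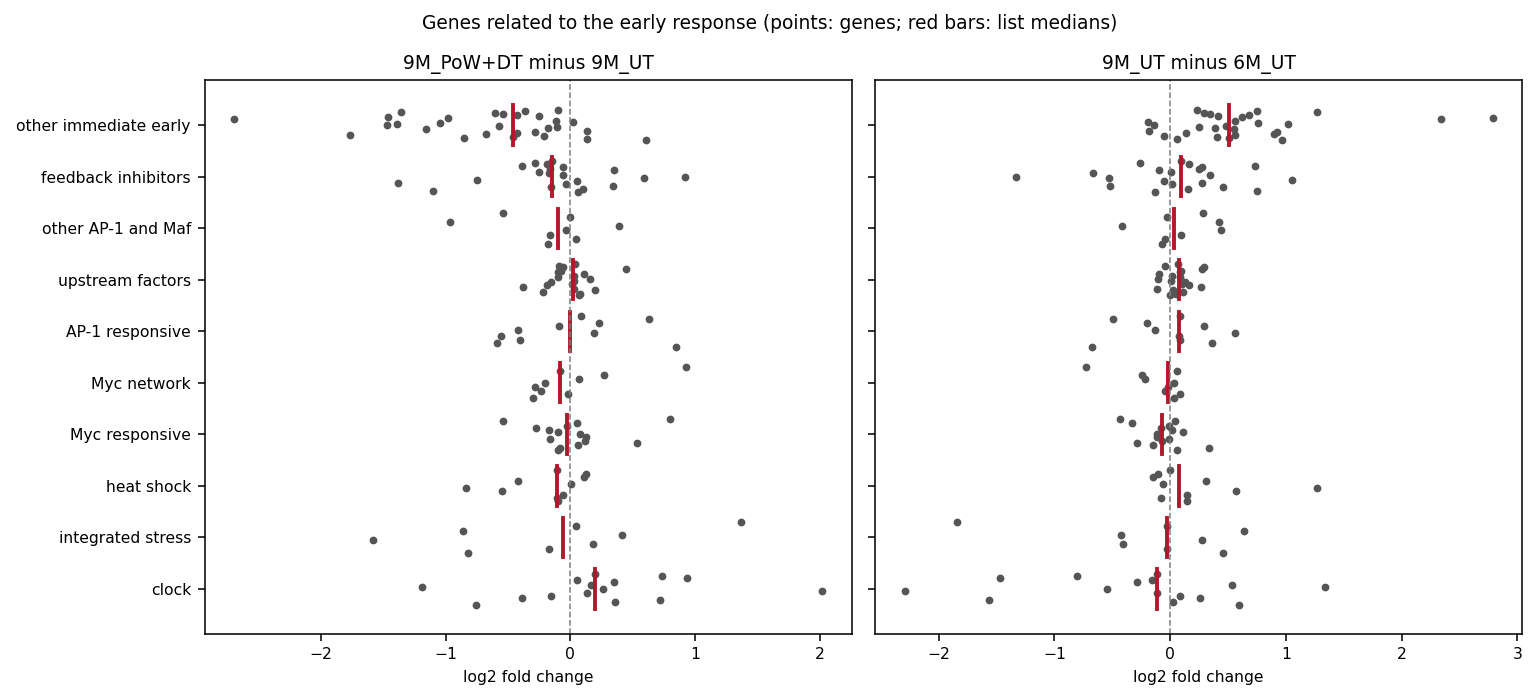
Log2 fold change of single genes (points) and list medians (red bars) for 10 lists of related genes in 9M_PoW+DT relative to 9M_UT and in 9M_UT relative to 6M_UT. The median of other immediate early genes lay at -0.46 and at 0.51, and those of the other 9 lists within 0.20 of 0.

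Factors upstream of the early response, its inhibitors and genes known to respond to AP-1 or Myc had medians near 0 in both contrasts. Of 20 upstream factors (Srf, Creb1, the Elk factors, their coactivators and MAP kinases), 11 lay above 0 in 9M_PoW+DT relative to 9M_UT with a median of 0.02, and 16 lay above 0 in 9M_UT relative to 6M_UT with a median of 0.08. None of the 20 was called by edgeR in either, with 1 at an unadjusted p under 0.05 in each. Of 21 feedback inhibitors, 7 lay above 0 with a median of -0.15 in the detraining contrast and 13 with a median of 0.10 in the age contrast, again with 0 called. Dusp7, a phosphatase of the MAP kinase Erk, ran against the members. It had 14.6, 22.7 and 22.5 CPM in 9M_PoW+DT and 10.5, 11.5 and 9.65 CPM in 9M_UT libraries, at 0.92 ± 0.21 (adjusted p = 0.500), and the 6M_UT libraries had 18.1 to 31.3 CPM, at -1.33 ± 0.21 in 9M_UT relative to 6M_UT (adjusted p = 0.0554).

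Of 12 other AP-1 and small Maf genes, 8 were tested; 6 lay below 0 in 9M_PoW+DT relative to 9M_UT with a median of -0.10, and 4 lay above 0 in 9M_UT relative to 6M_UT with a median of 0.04. Maff, a small Maf protein, had -0.97 ± 0.30 in the detraining contrast (adjusted p = 0.601). Fosl1, the fourth Fos gene, did not pass the filter, with 0 to 0.440 CPM over all libraries. Of 10 tested genes known to respond to AP-1, such as Cd44 and Hmox1, 5 lay above and 5 below 0 in the detraining contrast with a median of -0.01, and 6 above 0 in the age contrast with a median of 0.08. Of 15 genes known to respond to Myc, 7 lay above 0 with a median of -0.03 and 5 above 0 with a median of -0.07. Of 9 partners and antagonists of Myc, 3 lay above 0 with a median of -0.08 and 4 above 0 with a median of -0.01. None of these was called by edgeR in either contrast.

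Stress and clock genes were counted too. Of 8 tested genes of the integrated stress response, which Atf3 also follows, 4 lay above and 4 below 0 in the detraining contrast with a median of -0.06, and 3 above 0 in the age contrast with a median of -0.02. Single genes ranged from -1.58 to 1.37 and from -1.84 to 0.64. By edgeR 0 were called in either, with 2 and 1 at an unadjusted p under 0.05. Their summed CPM overlapped, with 287 to 359 in 9M_PoW+DT, 355 to 495 in 9M_UT and 347 to 487 in 6M_UT libraries. Of 10 heat shock genes, 3 lay above 0 with a median of -0.10 and 6 above 0 with a median of 0.07. Single heat shock genes ranged from -0.84 to 0.13 in the detraining contrast and from -0.15 to 1.27 in the age contrast. By edgeR 0 were called in either, with 1 and 2 at an unadjusted p under 0.05. Summed heat shock CPM, which the most abundant genes dominate, overlapped, with 937 to 1116 in 9M_PoW+DT, 973 to 1106 in 9M_UT and 943 to 1146 in 6M_UT libraries. Of 15 clock genes, 11 lay above 0 in 9M_PoW+DT relative to 9M_UT with a median of 0.20 and 6 above 0 in 9M_UT relative to 6M_UT with a median of -0.11; none was called in either. Single clock genes ranged from -1.19 to 2.02 and from -2.29 to 1.34, with 2 and 1 at an unadjusted p under 0.05 by edgeR. Summed clock CPM was 837 to 965 in 9M_PoW+DT and 771 to 799 in 9M_UT libraries, which did not overlap. It was 691 to 1056 in 6M_UT libraries. The clock output gene Dbp had 42.1, 34.96 and 33.9 CPM in 9M_PoW+DT and 14.0, 7.21 and 6.00 CPM in 9M_UT libraries, which did not overlap, with 9.20, 114.7 and 9.69 CPM in 6M_UT libraries. Its log2 fold change was 2.02 ± 1.01 in the detraining contrast (adjusted p = 0.773) and -2.29 ± 1.01 in the age contrast (adjusted p = 0.744). The part of the clock genes in the levels of the members was not tested.

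In the LD group, a few genes of these lists were called. Of the 20 upstream factors, 10 lay above and 10 below 0 relative to 6M_UT and 2 were called, both higher, beside 4.99% of all genes. Relative to 6M_PoW 14 lay above 0 and 1 was called, beside 2.4%. Of 29 other immediate early genes 1 was called lower relative to 6M_PoW and 0 relative to 6M_UT. Of 8 genes of the integrated stress response 2 were called lower relative to 6M_UT and 1 relative to 6M_PoW. Of 10 heat shock genes 1 was called lower in each contrast, and of 15 Myc-responsive genes 1 higher in each. Of 15 clock genes 1 was called higher relative to 6M_UT and 0 relative to 6M_PoW. Of 9 partners and antagonists of Myc 1 was called lower relative to 6M_PoW and 0 relative to 6M_UT. Srf, the factor that binds the CArG box, had 92.2, 84.7 and 89.6 CPM in 6M_POW_LD and 67.1, 77.4 and 72.4 CPM in 6M_UT libraries, without overlap, and rose by a log2 fold change of 0.30 ± 0.08 (edgeR adjusted p = 0.0313). Relative to 6M_PoW it rose by 0.35 ± 0.08 (adjusted p = 0.0185). Mapk3, which encodes the kinase Erk1, rose by 0.39 ± 0.11 relative to 6M_UT (adjusted p = 0.0470). Plk2, an early response kinase, had 5.05 to 6.37 CPM in 6M_POW_LD and 10.7 to 13.6 CPM in 6M_PoW libraries, with a log2 fold change of -1.05 ± 0.19 (adjusted p = 0.00477). Chac1, a glutathione-degrading enzyme of the integrated stress response, had 9.21 to 12.6 CPM in 6M_POW_LD and 47.7 to 131.5 CPM in 6M_UT libraries, with a log2 fold change of -2.95 ± 0.56 (adjusted p = 0.0169).

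Genes outside the members with the most similar profile were found by the root mean square difference in centred log2 CPM from the mean of the 10 members over 15 libraries, among 9633 genes. A flat profile differed by 0.400. Tiam2, an activator of the GTPase Rac1, was the nearest at 0.230, with a mean of 6.45 CPM in 9M_PoW+DT, 8.06 CPM in 9M_UT, 5.29 CPM in 6M_POW_LD, 5.72 CPM in 6M_PoW and 5.37 CPM in 6M_UT libraries. Ppp1r18, an actin-binding partner of protein phosphatase 1, followed at 0.241, Pxdc1 at 0.264 and the glycosyltransferase gene B3gnt2 at 0.279. The inducible heat shock gene Hspa1a lay at 0.280, with 10.2, 12.4 and 8.83 CPM in 9M_PoW+DT and 17.4, 10.6 and 17.9 CPM in 9M_UT libraries, which overlapped. Zw10, a gene of chromosome segregation and vesicle transport, lay at 0.281.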

How the data were processed

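Plantaris RNA was sequenced in 15 libraries. The table deposited by the authors holds expected counts for each gene and, in other columns, gene start and stop positions. Per the submitters' processing notes, STAR 2.7.3a, DESeq2, Partek and build mm10 were used, with no roles stated. The counter, its strand setting and the annotation release were not given in the sources used here. Of the deposited expected counts, 26.9% to 31.9% per library were not whole; they were rounded. The 10 members and all lists were chosen with earlier results of these data known.

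Genes were kept by filterByExpr, normalized by TMM (trimmed mean of M values) and fitted by robust quasi-likelihood in edgeR 4.0.16 under R 4.3.3, with a mean for each group, in 12 libraries for comparisons without LD and in 15 for those with it. Benjamini-Hochberg adjustment ran over all genes of a comparison, and genes under 0.05 were called; SE is the log2 fold change over the square root of F. CPM used TMM totals over 15 libraries, and exon lengths came from GENCODE on the same build. DESeq2 1.42.0 and limma-voom 3.58.1 were alternatives. Members were chosen on the 9M_UT columns, so contrasts with these give no member p. The model was tested on simulated data. Named genes were all members, the listed genes called in a comparison or with the smallest p in a 9M_UT contrast, and the 6 most similar profiles; a selection of these is printed. Replicate numbers were not used as pairs.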

Additional observations from a re-analysis of the deposited data

Results flagged for a closer look

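Atf3 had fitted changes of opposite sign in the 2 comparisons of past or present training with no training, and so had Fosb, Fosl2, Klf4, Junb and Jund. All 10 members lay below 0 in 9M_PoW+DT relative to 9M_UT, as the choice of genes favours, and 6 of the 10 lay above 0 after training. The log2 fold change of Atf3 was -1.78 in 9M_PoW+DT relative to 9M_UT, where all 3 detrained libraries lay below all 3 untrained libraries. It was 0.37 in 6M_PoW relative to 6M_UT, where all 3 trained libraries lay above all 3 untrained libraries, but it did not pass the test (edgeR adjusted p = 0.709) and was -0.14 with the LD libraries counted as untrained. The difference between the 2 comparisons was not tested, since the genes were chosen on the 9M_UT libraries. No test for single outlying libraries was run, since groups of 3 are small for one. Fits that leave out 1 library are given below.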

How the results depend on the processing

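Counts of called genes moved most. With DESeq2 they were 112 for training, 348 for 9M_PoW+DT relative to 6M_PoW, 12 for 9M_PoW+DT relative to 6M_UT, 1190 and 675 for 6M_POW_LD relative to 6M_UT and 6M_PoW, 30 for 9M_PoW+DT relative to 9M_UT and 58 for 9M_UT relative to 6M_UT. With limma-voom, training had 2 and the age contrast 4. With no filter on low counts, training had 8, 9M_PoW+DT relative to 6M_PoW 81 and the age contrast 10. In a fit of the 2 groups alone, training had 4, 6M_POW_LD relative to 6M_UT 387, 9M_PoW+DT relative to 9M_UT 18 and the age contrast 10. With the LD libraries counted as trained, training had 29, 9M_PoW+DT relative to 6M_PoW 124 and the age contrast 4; counted as untrained, 9M_PoW+DT relative to 6M_PoW had 3. With the 9-month groups exchanged, 9M_PoW+DT relative to 6M_UT had 2 and the age contrast 0. Leaving out 1 library gave 0 to 10 for training, 0 to 109 for 9M_PoW+DT relative to 6M_PoW, 0 to 1 for 9M_PoW+DT relative to 6M_UT, 288 to 827 and 157 to 428 for the LD contrasts, 1 to 6 for 9M_PoW+DT relative to 9M_UT and 1 to 15 for the age contrast. The causes were not tested.

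Members called numbered 1 for 9M_PoW+DT relative to 6M_PoW with DESeq2 and with the LD libraries counted as trained (Fosl2, adjusted p = 0.0296 in the second). For 6M_POW_LD relative to 6M_UT they numbered 2 with DESeq2 and 0 in the fit of 2 groups, and 0 to 1 without 1 library. With the 9-month groups exchanged, members were not counted as called, since those contrasts then use the columns on which they were chosen.

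Same-numbered libraries had deviations correlated between -0.20 and 0.15 over 18 pairs, with 2 over 0.1, so the numbers were not taken as pairs. With the replicate block, 1 gene was called for training, 19 for 9M_PoW+DT relative to 6M_PoW and 5 for the age contrast, and Egr1 after training was 0.088. The LD libraries share no replicate number with the others, so they have no blocked fit.

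Signs turned as follows. After training, Egr1 was 0.070 with limma-voom and 0.18 with LD as trained, and with LD as untrained Jund was -0.066, Atf3 -0.14 and Myc 0.030. In 9M_PoW+DT relative to 6M_PoW, Myc was -0.049 with limma-voom and Jun 0.10 with LD as trained; with the 9-month groups exchanged Fosl2 was 0.64, Jun 0.21, Junb 0.60, Atf3 1.75 and Klf4 0.62. In 9M_PoW+DT relative to 6M_UT, Fos was 0.017 with limma-voom, Atf3 was -0.17 and Myc 0.089 with LD as untrained, and the exchange gave Fos 0.44, Fosl2 1.07, Klf4 1.15 and Myc 0.19. Between the 9-month groups the exchange turns the sign of every member by construction, with 1.78 for Atf3, 1.40 for Fosl2, 1.36 for Klf4 and 0.85 for Junb. The age contrast then becomes 9M_PoW+DT relative to 6M_UT as titled, with Fos -0.49, Fosl2 -0.33, Klf4 -0.21 and Myc -0.18. With LD as untrained, Jun was 0.19 in the age contrast. With limma-voom, Fos was 0.077 in 6M_POW_LD relative to 6M_UT.

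Leaving out 1 library turned these signs. After training Fos ranged from -1.51 to 0.84, Jun from -0.50 to 0.14, Egr1 from -0.42 to 0.24 and Myc from -0.43 to 0.18. In 9M_PoW+DT relative to 6M_PoW Fos ranged from -0.39 to 1.02, Jun from -0.17 to 0.066, Atf3 from -0.27 to 0.11 and Myc from -0.27 to 0.36. In 9M_PoW+DT relative to 6M_UT Fos ranged from -1.37 to 1.33, Jun from -0.56 to 0.074, Junb from -0.13 to 0.25, Klf4 from -0.54 to 0.0013 and Myc from -0.51 to 0.24. In 6M_POW_LD relative to 6M_UT Fos ranged from -1.19 to 1.08, Junb from -0.28 to 0.015, Egr1 from -0.19 to 0.70 and Klf4 from -0.10 to 0.34. In 6M_POW_LD relative to 6M_PoW Fos ranged from -0.14 to 0.76, Fosl2 from -0.093 to 0.21 and Egr1 from -0.13 to 0.76. Between the 9-month groups Egr1 ranged from -0.35 to 0.59. The age contrast had Fos from -0.0072 to 2.26, Jun from -0.30 to 0.34 and Myc from -0.11 to 0.61.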
